A study of Mus musculus with 36 samples.

Results

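Metallothioneins are small, cysteine-rich cytoplasmic proteins that hold zinc and copper, and Slc30a1 encodes the zinc exporter of the plasma membrane (ZnT1). The 4 genes Mt1, Mt2, Mt3 and Slc30a1 were chosen by symbol from the 40205 genes counted in this series, with earlier results of these data known. All 4 passed the filter on low counts in every comparison. RNA was sequenced from neural stem cells (NSCs) of the dorsal telencephalon of gestational day 12.5 mouse fetuses (strain C57BL/6J, genotype label WT, named C57BL/6J (Ai14), a Cre-dependent reporter line, in the study's methods), grown as neurospheres, and from the extracellular vesicles (EVs) that these cultures released. There were 6 cultures, a female (F) and a male (M) culture from each of 3 pregnancies numbered 3, 4 and 5, and each culture pooled the fetuses of its sex within that pregnancy. Each culture was kept for 5 days at 0 mg/dL ethanol (control), 120 mg/dL (moderate) or 320 mg/dL (heavy), and gave 1 cell and 1 EV library per dose, so that the 12 groups of location, sex and dose held 3 libraries each and the 36 libraries comprised 18 of cells and 18 of EVs. Every group shared the strain, the culture medium and passages 7 to 10, and a culture stands for a pregnancy and a sex, not for a single fetus.

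Zinc that enters a cell is sensed by the transcription factor MTF-1 (gene Mtf1), which binds metal response elements (MREs) and raises the transcription of Mt1, Mt2 and Slc30a1. Mt1 and Mt2 are expressed in most tissues and also respond to glucocorticoids and oxidative stress. Mt3 is the brain-enriched family member and responds little to metals, and Mt4 is the form of stratified squamous epithelium. The comparisons asked whether ethanol changed these transcripts in NSCs or in their EVs, and how EV levels related to those of the cells of origin.

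The 3 metallothionein genes lie side by side on chromosome 8, all on the plus strand of GRCm39. Mt3 spans chr8:94879220-94881088, Mt2 chr8:94898819-94900207 and Mt1 chr8:94905710-94906955, and Slc30a1 spans chr1:191638808-191645361. Exons of Mt2 overlap the antisense lncRNA Gm45774 over 783 bases, and exons of Slc30a1 overlap the antisense lncRNA 1700034H15Rik over 468 bases, and whether the counting used strand is not stated. The 250 bases before each RefSeq start are shown because MREs are the elements through which zinc acts on these genes. The sequences are RefSeq's (GRCm38.p6), and each matched GRCm39 exactly once on its chromosome, at chr8:94905467-94905716 for Mt1, chr8:94898996-94899245 for Mt2, chr8:94878985-94879234 for Mt3 and chr1:191638643-191638892 for Slc30a1, plus strand throughout. Capitals mark matches to the core of an MRE, searched as TGCACNC or TGCGCNC on both strands.
Mt1: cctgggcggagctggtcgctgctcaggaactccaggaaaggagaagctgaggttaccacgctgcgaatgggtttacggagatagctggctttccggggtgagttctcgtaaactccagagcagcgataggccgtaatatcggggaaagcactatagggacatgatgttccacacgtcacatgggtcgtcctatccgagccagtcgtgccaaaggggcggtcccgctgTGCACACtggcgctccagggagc
Mt2: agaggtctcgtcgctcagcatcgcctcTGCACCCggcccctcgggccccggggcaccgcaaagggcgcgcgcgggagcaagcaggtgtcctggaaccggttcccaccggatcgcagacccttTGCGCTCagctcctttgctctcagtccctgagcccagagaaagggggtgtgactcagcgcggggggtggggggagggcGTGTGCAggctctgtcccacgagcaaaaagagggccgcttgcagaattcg
Mt3: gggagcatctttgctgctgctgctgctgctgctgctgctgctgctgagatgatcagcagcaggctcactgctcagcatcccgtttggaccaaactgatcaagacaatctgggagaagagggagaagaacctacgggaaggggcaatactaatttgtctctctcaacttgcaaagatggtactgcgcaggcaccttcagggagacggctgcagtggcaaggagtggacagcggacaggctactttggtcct
Slc30a1: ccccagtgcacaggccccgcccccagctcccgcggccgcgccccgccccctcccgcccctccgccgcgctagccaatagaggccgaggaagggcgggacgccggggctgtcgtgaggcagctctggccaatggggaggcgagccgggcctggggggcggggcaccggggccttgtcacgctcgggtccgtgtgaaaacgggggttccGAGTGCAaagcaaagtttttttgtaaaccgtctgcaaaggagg
Mt2 held 3 matches, which began 50, 128 and 223 bases before the start, the nearest of them on the minus strand. Mt1 held 1 match, 23 bases before the start, and Slc30a1 held 1 on the minus strand, 43 bases before the start. Mt3 held none in this window. Sequence past the RefSeq start or further upstream was not searched. These counts therefore do not give the number of MREs of a gene or rank the genes by it. Of 32851 mouse promoters of this length, 21.4% held at least 1 such match, 5.17% at least 2 and 1.26% at least 3. The antioxidant response element core, searched as TGACNNNGC on both strands with no overlap with an MRE match in these windows, occurred once in Mt2 and once in Slc30a1, and in 10.2% of all promoters. The RefSeq starts lay 7, 114, 15 and 50 bases after the GENCODE canonical starts of Mt1, Mt2, Mt3 and Slc30a1, so each window included the start of its GENCODE transcript, in Mt2 with the longest stretch past it.

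Library totals were 26566061 to 55282322 counts in cells and 959217 to 5509952 in EVs, and a value therefore rested on far fewer counts in EVs. Of the 8 NSC and radial glia markers checked, 7 were expressed in cells and Sox2 was listed at 0 in every library, and the summed level of the list was 2576 to 4103 CPM (counts-per-million units, with library sizes scaled by the trimmed mean of M values, TMM). All 6 microglial, 4 endothelial and 4 erythroid markers had a mean under 1 CPM in cells, whereas the summed astrocyte markers ranged from 152.6 to 893.2 CPM. Summed neuron markers ranged from 430.4 to 895.7 CPM in cells, with Map2 at a mean of 619.2. Summed oligodendrocyte lineage markers ranged from 287.5 to 572.5 CPM, with Olig1 at a mean of 265.8. Replicates are separate cultures, and the 3 dose libraries of a culture are not independent of each other.

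Mt1 was the most abundant of the 4 transcripts per length. On the scale of CPM per kilobase of exon, the mean level in cells was 135.8 ± 37.6 (SD, n = 18) for Mt1, 81.4 ± 31.4 for Mt2, 14.8 ± 5.72 for Mt3 and 5.29 ± 1.35 for Slc30a1. Within each of the 18 cell libraries the order Mt1, Mt2, Mt3, Slc30a1 held, with Mt1 1.41 to 2.61 times Mt2. In EVs the means were 52.9 ± 13.1, 33.6 ± 12.6, 7.03 ± 3.34 and 1.28 ± 0.530 on the same scale, and the order again held in all 18 libraries, although Mt1 exceeded Mt2 by as little as 1.09-fold. With the longest transcript as the length, Mt1 fell below Mt2 in 1 EV library. Mt4 had 0 or 1 count in every cell and EV library and could not be tested.

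Heavy ethanol was accompanied by higher mean Mt1 and Mt2 levels in cells, but no member passed the test in any ethanol comparison. Mt1 was 1.39-fold of control at 320 mg/dL (log2 difference 0.48, 95% interval 0.08 to 0.88) and Mt2 1.60-fold (log2 difference 0.68, 95% interval 0.12 to 1.23), with adjusted p = 0.491 and 0.488 by edgeR's quasi-likelihood test with the culture as a block and Benjamini-Hochberg adjustment over 17792 genes. The unadjusted p was 0.0230 and 0.0205. In that comparison 0.0393% of all genes tested were called in either direction, and 8.57% had an unadjusted p under 0.05. Mt3 and Slc30a1 differed by 0.20 and 0.15 on the log2 scale, with 95% intervals that included 0. In bulk RNA, a change in how many cells express a gene and a change in RNA per cell cannot be told apart.

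The Mt1 difference varied widely between cultures. In culture 3F, Mt1 stood at 68.2 CPM at control, 115.3 at moderate and 238.8 at heavy ethanol. In culture 4F it stood at 154.4, 188.9 and 203.9 CPM, and in culture 5F at 166.2, 203.5 and 222.8 CPM. All 3 female cultures therefore rose stepwise with dose, 3F by far the most. In culture 3M the levels were 210.5, 144.9 and 189.8 CPM, in 4M 101.3, 112.0 and 139.9 CPM, and in 5M 200.3, 192.8 and 191.2 CPM. Only 4M of the male cultures was higher at each step, and the ranges of the 3 doses overlapped.

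Mt2 followed Mt1 closely in cells. Culture 3F went from 19.9 to 41.3 to 115.1 CPM with dose. Culture 4F had 78.0, 101.5 and 110.5 CPM, and 5F 79.4, 102.4 and 117.7 CPM. In the male cultures Mt2 was 98.1, 67.4 and 97.9 CPM in 3M, 30.9, 42.1 and 50.5 CPM in 4M, and 84.4, 82.1 and 72.6 CPM in 5M. The control levels of the 6 cultures ranged from 19.9 to 98.1 CPM, a spread between cultures that the culture block of the fit takes out.

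**Figure D1:**
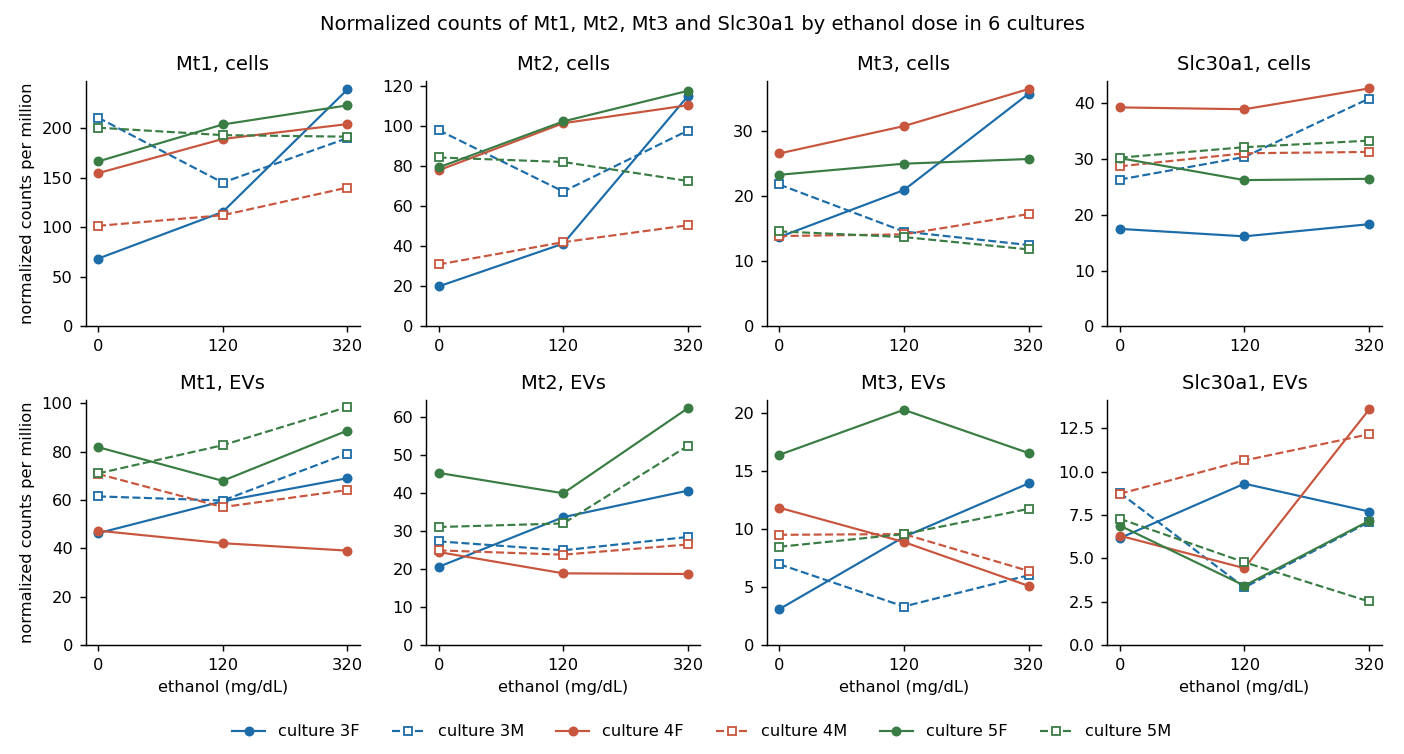
CPM of each gene (y axis, each panel with its own scale from 0) in cells (top) and EVs (bottom) at 0, 120 and 320 mg/dL ethanol, drawn at equal spacing. Each line is 1 culture (circles and solid lines female, squares and dashed lines male, colours the pregnancy); in cells Mt1 went from 68.2 to 238.8 in culture 3F while 5M moved from 200.3 to 191.2.

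Over the 6 cultures, the mean log2 difference of Mt1 between heavy ethanol and control was 0.48 ± 0.70 (SD, n = 6), higher in 4 of 6, with p = 0.125 by a two-sided exact sign-change test. For Mt2 it was 0.68 ± 0.97, higher in 4 of 6 cultures, with p = 0.125 by the same exact test. By library totals the means were 0.37 ± 0.435 for Mt1 and 0.57 ± 0.70 for Mt2. Each was then higher in 5 of 6 cultures (exact sign-change p = 0.0625 for each), so the sign counts depended on the scaling. The smallest p that 6 cultures allow is 0.031, and 35 such exact tests were computed on TMM values and 24 by library totals. With TMM, culture 3F alone gave log2 differences of 1.81 for Mt1 and 2.53 for Mt2, and without it the means were 0.21 and 0.31. Scaled by library totals instead of TMM, Mt1 in culture 3F went from 100.1 to 146.3 to 228.4 CPM, a smaller step in the same direction, since the TMM factors of these 3 libraries ran from 1.47 over 1.27 to 0.958. Other genes with little exon sequence moved with the same libraries, as described further on.

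Mt3 in cells did not move in the same direction with dose in every culture. At control, moderate and heavy ethanol it was 13.7, 21.0 and 35.8 CPM in 3F, 26.6, 30.8 and 36.5 CPM in 4F, and 23.3, 25.0 and 25.7 CPM in 5F. In the male cultures it was 21.8, 14.6 and 12.5 CPM in 3M, 13.9, 14.1 and 17.3 CPM in 4M, and 14.6, 13.7 and 11.8 CPM in 5M. Levels were higher at heavy ethanol than at control in every female culture and in 1 of 3 male cultures. The mean log2 difference was 0.66 ± 0.64 in female and -0.26 ± 0.56 in male cultures (SD, n = 3 each). A test of that sex difference in the response, over all genes with the culture as a block, gave 0.89 for Mt3 with an SE of 0.30, and edgeR called 0 of 17792 genes (adjusted p of Mt3 0.220). The response was also larger in females for Mt1, by 0.77 ± 0.33 (SE), and for Mt2, by 1.02 ± 0.46 (SE), with adjusted p values of 0.246 and 0.262 and unadjusted p values of 0.0362 and 0.0472 in the same edgeR fit. For Slc30a1 it was smaller in females, by -0.35 (SE 0.15, unadjusted p = 0.0388, adjusted p = 0.249 by edgeR). Much of the female response came from culture 3F: without it the female means were 0.41 for Mt1, 0.54 for Mt2 and 0.30 for Mt3, and the sex difference in the response was 0.29, 0.34 and 0.52, with unadjusted p = 0.183, 0.246 and 0.0740 by edgeR. Without culture 4M the fit called 1005 of 17923 genes and none of the 4 (adjusted p of Mt3 0.0519 by edgeR), and without any other culture it called 0. Without 3M the Slc30a1 value was -0.17. At the moderate dose no sex difference in the response had an adjusted p below 0.573 for any of the 4 genes in the same edgeR fit.

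Slc30a1, the exporter, differed little between doses in cells. Culture 3F had 17.5, 16.1 and 18.3 CPM with increasing dose, 4F 39.2, 38.9 and 42.6 CPM, and 5F 30.1, 26.2 and 26.4 CPM. The male cultures had 26.3, 30.3 and 40.8 CPM (3M), 28.7, 31.0 and 31.3 CPM (4M), and 30.2, 32.1 and 33.3 CPM (5M). Culture 3M stood out with the largest step. Between moderate and heavy ethanol, Slc30a1 was higher in 6 of 6 cultures by a mean log2 difference of 0.14 ± 0.16, with p = 0.031 by the exact sign-change test, the smallest it can give. By library totals it was higher in 4 of 6 cultures, with 3F and 4M lower, and the exact p was 0.344. The edgeR fit over all genes gave 0.15 (SE 0.09) with adjusted p = 1.00. By library totals, Slc30a1 in culture 3F fell from 25.6 to 17.5 CPM between control and heavy ethanol, so that its direction in that culture depended on the scaling.

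At moderate ethanol, the 4 genes differed from control in cells by log2 values of 0.12 for Mt1, 0.22 for Mt2, 0.01 for Mt3 and 0.00 for Slc30a1, none called, with 0% of all genes called. Heavy against moderate ethanol gave 0.36, 0.46, 0.19 and 0.15, none called and again with 0% of genes called. Between these doses Mt1 was higher at heavy ethanol in 5 of 6 cultures with TMM (exact sign-change p = 0.0625) and in 6 of 6 by library totals (exact p = 0.031, the smallest possible). At an unadjusted p under 0.05 there were 444 and 633 of 17792 genes in these 2 comparisons by edgeR.

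EVs carried Mt1 and Mt2 at lower and more even levels. In EVs, Mt2 was 1.28-fold of control at heavy ethanol (log2 difference 0.36, 95% interval 0.07 to 0.65, unadjusted p = 0.0189, adjusted p = 0.298 by edgeR), a comparison in which 0.0842% of 11880 genes were called. Culture by culture, EV Mt2 at control, moderate and heavy ethanol was 20.5, 33.6 and 40.6 CPM in 3F, 24.4, 18.8 and 18.7 CPM in 4F, and 45.2, 39.9 and 62.2 CPM in 5F. In male cultures it was 27.2, 24.9 and 28.4 CPM in 3M, 24.9, 23.7 and 26.4 CPM in 4M, and 31.0, 31.9 and 52.3 CPM in 5M. Heavy ethanol thus gave the higher EV Mt2 value in 5 of 6 cultures, with the groups overlapping (exact sign-change p = 0.156). The log2 difference was 0.12 by library totals, the lowest of 16 alternatives, 0.22 without pregnancy 5, and 0.52 without pregnancy 4, the highest (adjusted p 0.116 to 1.00 by edgeR or DESeq2).

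EV Mt1 was 46.2, 59.4 and 69.0 CPM in 3F, 47.3, 42.1 and 39.0 CPM in 4F, and 81.8, 67.9 and 88.7 CPM in 5F. In male cultures EV Mt1 was 61.5, 59.7 and 79.2 CPM in 3M, 70.8, 57.0 and 64.1 CPM in 4M, and 70.9, 82.6 and 98.4 CPM in 5M. Its log2 difference at heavy ethanol was 0.20 (95% interval -0.05 to 0.44, adjusted p = 0.553 by edgeR), higher in 4 of 6 cultures. By library totals it was -0.03, beside a median of -0.24 over all genes in that fit and 0.01 with TMM. Culture 4F, whose 3 EV libraries held 23 to 60 Mt1 counts, was lowest at both ethanol doses.

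EV values of Mt3 and Slc30a1 rested on few counts. Mt3 counts in EVs ranged from 2 to 65 and Slc30a1 counts from 2 to 40 per library. Mt3 in EVs of culture 3F at control was 3.08 CPM from 3 counts, with an exact Poisson 95% interval of 0.635 to 9.0 CPM that covers counting error only. The ranges of Mt3 in EVs were 3.08 to 16.4 CPM at control, 3.32 to 20.2 CPM at moderate and 5.09 to 16.5 CPM at heavy ethanol, and those of Slc30a1 were 6.16 to 8.78, 3.32 to 10.6 and 2.51 to 13.6 CPM. The log2 differences at heavy ethanol were 0.10 for Mt3 (95% interval -0.42 to 0.61) and -0.05 for Slc30a1 (95% interval -0.63 to 0.54). Both intervals included 0 and changes of either sign.

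Moderate ethanol in EVs gave log2 differences of -0.05 for Mt1, -0.03 for Mt2, 0.08 for Mt3 and -0.28 for Slc30a1, none called, beside 0.00842% of all genes. Heavy against moderate ethanol in EVs gave 0.25, 0.39, 0.02 and 0.23, none called, beside 0% of all genes, while 438 of 11880 genes had an unadjusted p under 0.05 by edgeR. Mt1 and Mt2 were each higher at heavy than at moderate ethanol in 5 of 6 EV cultures (exact sign-change p = 0.0625 for each). Moderate and heavy ethanol were compared with the same control libraries, so these values are not independent of each other.

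**Figure D2:**
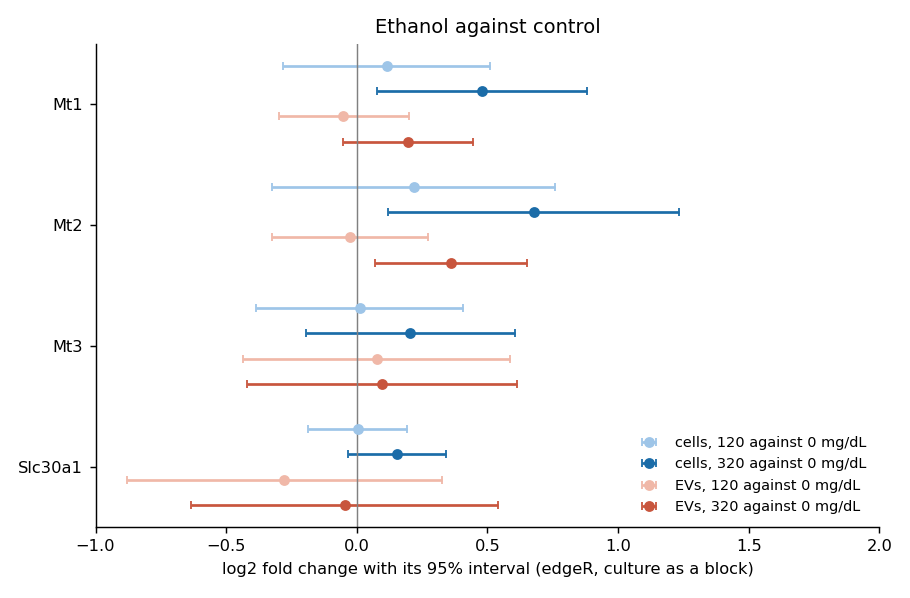
Log2 fold change of each gene against control (x axis) with its 95% interval, for moderate and heavy ethanol in cells and EVs. The intervals of Mt1 and Mt2 in cells at 320 mg/dL (0.08 to 0.88 and 0.12 to 1.23) and of Mt2 in EVs at 320 mg/dL (0.07 to 0.65) lie above 0 before adjustment over all genes.

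The listed genes of zinc handling, chosen for their roles with earlier results of these data known, did not pass the ethanol tests either. In cells at heavy ethanol, 0 of 7 tested zinc exporters of the Slc30 family and 0 of 12 tested importers of the Slc39 family were called in either direction. Their median log2 differences were -0.04 and -0.10, beside -0.01 for all genes. The largest exporter value was 0.36 (SE 0.18, adjusted p = 0.620 by edgeR) for Slc30a10, a manganese and zinc exporter. Mtf1, the zinc sensor, differed by -0.08 (SE 0.06). Hmox1, the heme oxygenase of the oxidative stress response, differed by -0.42 (SE 0.18, adjusted p = 0.545 by edgeR), and 8 of 9 oxidative stress genes were below 0, with 0 of 9 called and a median of -0.14. Of 9 glucocorticoid-responsive genes, 5 were above 0 with a median of 0.07, and of 8 tested hypoxia and glycolysis genes 7 were above 0 with a median of 0.20, none called. Of 10 tested copper and other metal handling genes 4 were above 0 with a median of -0.09, none called. In EVs at heavy ethanol none of the 5 exporters, 8 importers, 9 metal handling, 7 oxidative stress, 9 glucocorticoid-responsive and 6 hypoxia genes tested was called.

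The ratio of Mt1 to Mt2 within a library lay between 1.84 and 3.42 for cells, and between 1.43 and 2.85 for EVs. The raw Mt1 count divided by the raw Mt2 count, which needs no scaling between libraries, was 2.35 ± 0.480 (SD, n = 18) in cells and 2.15 ± 0.394 in EVs. In cells at control, moderate and heavy ethanol the ratio was 3.42, 2.79 and 2.08 in culture 3F, 3.28, 2.66 and 2.77 in 4M, and 2.37, 2.35 and 2.63 in 5M. It was 2.15, 2.15 and 1.94 in 3M, 1.98, 1.86 and 1.84 in 4F, and 2.09, 1.99 and 1.89 in 5F. Cultures 3F and 4M, which had the lowest Mt2 levels at control, also had the highest ratios there. The ratio was lower at heavy ethanol than at control in 5 of 6 cell cultures (mean log2 difference -0.20 ± 0.29, exact sign-change p = 0.156) and in 4 of 6 EV cultures (-0.14 ± 0.28, exact sign-change p = 0.312). Both mean differences were smaller in size than their SD over the cultures.

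**Figure D3:**
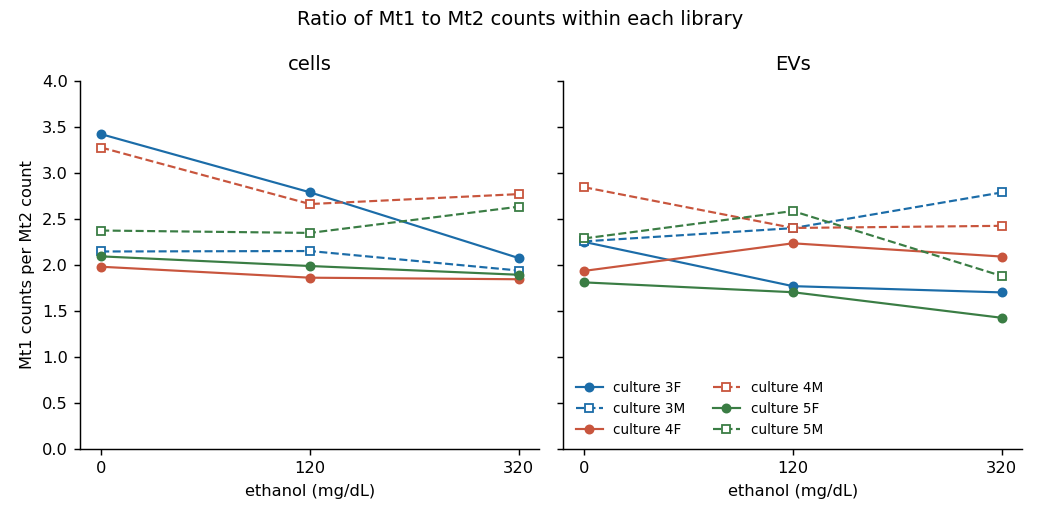
Raw Mt1 counts per Mt2 count (y axis, from 0) in each library, by ethanol dose at equal spacing, in cells (left) and EVs (right), with 1 line per culture as in the plot of values by dose. In cells the ratio fell from 3.42 to 2.08 in culture 3F and stayed between 1.84 and 2.15 in 3M, 4F and 5F.

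Within cultures, Mt1, Mt2 and Mt3 moved together and Slc30a1 did not move with them. Over the 18 cell libraries, as deviations of log2 CPM from the mean of each culture, Pearson's r was 0.990 for Mt1 and Mt2, 0.886 for Mt1 and Mt3, 0.857 for Mt2 and Mt3, and 0.0749, 0.135 and -0.272 for Slc30a1 with Mt1, Mt2 and Mt3. In the 18 EV libraries the same 3 metallothionein pairs had r = 0.851, 0.62 and 0.659, and Slc30a1 had -0.0410, -0.0172 and -0.0417. Without culture 3F, which leaves 15 libraries in each, the cell pairs had r = 0.955, 0.649 and 0.542 and the EV pairs 0.778, 0.376 and 0.332, and Slc30a1 and Mt3 had -0.603 in cells. The likeness of Mt3 to the other metallothioneins thus rested in part on 3F. These are descriptions over libraries that share cultures, scaling and RNA preparation. Among 8011 other genes with a mean of at least 10 CPM in cells, the genes most like Mt1 by this measure were Gm1673 (r = 0.975), Plaat3 (0.967) and Srek1ip1 (0.967), those most like Mt2 were Ramp1 (0.967), Hopx (0.966) and Gm1673 (0.962), those most like Mt3 were Irak1bp1 (0.973), Coq3 (0.971) and Trnau1ap (0.967), and those most like Slc30a1 were Dgkb (0.873), Taok3 (0.871) and Dgkk (0.867). Altogether 102, 90 and 204 genes had r over 0.9 with Mt1, Mt2 and Mt3, and 0 with Slc30a1.

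Genes with little exon sequence moved with the same libraries. The median log2 CPM of 570 other protein-coding genes with under 2000 exon bases, relative to the mean over cell libraries, was -0.04, 0.31 and 0.50 in culture 3F at control, moderate and heavy ethanol, and 0.35, 0.03 and 0.06 in 3M. In 3F Mt1, Mt2 and Mt3 rose with dose, and in 3M Mt3 went from 21.8 to 12.5 CPM. As deviations from the culture's mean over the 18 cell libraries, the short-gene median had r = 0.828 with Mt1, 0.821 with Mt2, 0.905 with Mt3 and -0.303 with Slc30a1, whose exons span 5663 bases against 950 to 1395 for the metallothioneins. Without culture 3F these were 0.674, 0.663, 0.833 and -0.497. In the fit of heavy ethanol against control the short genes as a set had a median log2 difference of 0.05 (quartiles -0.11 and 0.21, 783 genes). The median over all protein-coding genes that passed the filter was 0.01, 0.04 and -0.03 in culture 3F. The genes named above as most like the metallothioneins, the top 3 of 8011 for each, had 2220 (Hopx) to 9846 (Plaat3) exon bases. No length was at hand for Gm1673. Those most like Slc30a1 had 7849 to 13659. The part of transcript length in the differences between libraries was not tested.

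**Figure D4:**
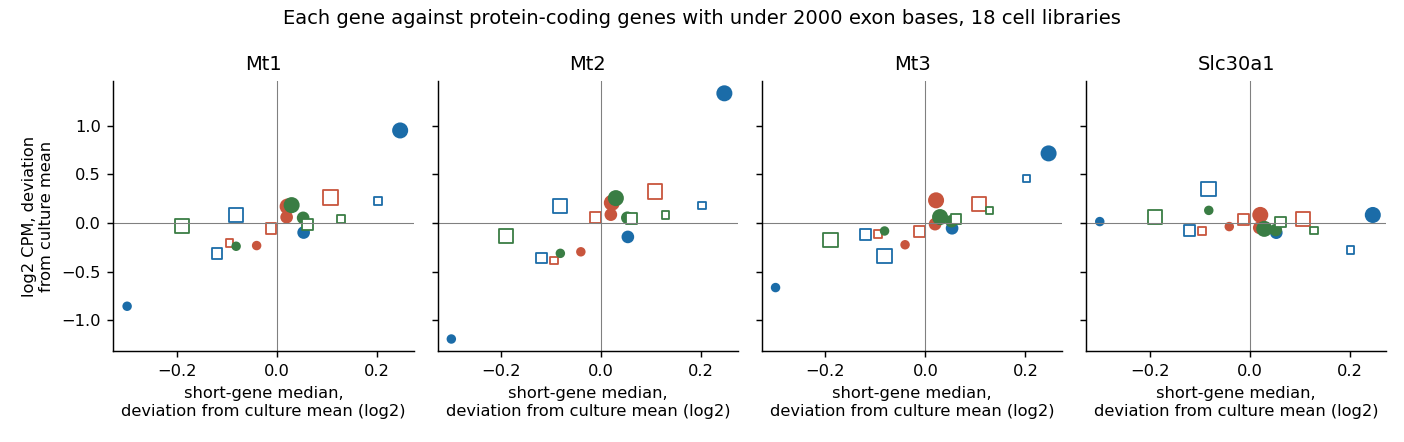
Log2 CPM of each gene (y axis) against the median log2 value of 570 protein-coding genes with under 2000 exon bases (x axis) in the 18 cell libraries, both as deviations from the mean of the culture. Circles are female and squares male cultures, coloured by pregnancy as in the plot of values by dose, and larger symbols mean higher ethanol doses; Mt1, Mt2 and Mt3 run along with the short-gene median (r = 0.828, 0.821 and 0.905) and Slc30a1 does not (r = -0.303).

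Culture took a larger share of the sum of squares than dose for every member, but these shares cannot rank culture against ethanol. There were more cultures than doses, so culture would be expected to take the larger share even if neither had an effect. Each share is therefore read beside the median of the same share over all genes. In cells, culture took 45.0% of the sum of squares of log2 CPM for Mt1, 54.3% for Mt2, 68.7% for Mt3 and 89.8% for Slc30a1. Dose took 19.0%, 16.1%, 2.65% and 2.97%. Over all 15281 genes the medians were 76.8% for culture and 2.34% for dose. In EVs culture took 76.8%, 70.4%, 54.1% and 37.0%, and dose 7.10%, 10.3%, 0.470% and 11.0%, beside medians of 51.2% and 6.53% over all genes.

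All 4 transcripts were less abundant in EVs than in cells. Mt1 was at 65.9 ± 16.3 CPM in EVs (SD, n = 18) against 169.1 ± 46.8 in cells, Mt2 at 31.9 ± 11.9 against 77.3 ± 29.8, Mt3 at 9.81 ± 4.66 against 20.7 ± 7.99, and Slc30a1 at 7.23 ± 3.00 against 30.0 ± 7.63. The fitted levels were 2.55-fold lower for Mt1 (log2 difference -1.35, SE 0.13), 2.37-fold for Mt2 (-1.25, SE 0.18), 1.96-fold for Mt3 (-0.97, SE 0.15) and 4.10-fold for Slc30a1 (-2.04, SE 0.16), with adjusted p = 1.7e-11, 9.6e-08, 5.0e-07 and 8.0e-14 by edgeR. The fit had no culture or pair term, so these p values treat the 3 dose libraries of a culture as separate samples. In this comparison 80.5% of 15281 genes were called and 42.2% were lower in EVs, so a lower EV level by itself was common. The differences of Slc30a1 and Mt1 were more negative than this: 5.48% and 16.1% of genes had lower values, beside 18.3% for Mt2 and 25.1% for Mt3, and the median gene stood at -0.08. Protein-coding genes with under 2000 exon bases had a median of -0.42 in this comparison (quartiles -1.05 and 0.63, 573 genes), in the direction of the metallothioneins, and the part of exon length in their EV difference was not tested.

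The direction held in nearly every EV and cell pair. Mt1, Mt3 and Slc30a1 were lower in the EV library in 18 of 18 pairs of a culture and dose, and Mt2 in 17 of 18, the exception being culture 3F at control, where Mt2 had 20.5 CPM in EVs and 19.9 in cells. Averaged over doses, all 6 cultures were lower for each gene (p = 0.031 by the exact sign-change test, the smallest possible). The mean log2 difference of Mt1 ranged from -0.87 in 4M to -2.08 in 4F, that of Mt2 from -0.59 in 3F to -2.22 in 4F, that of Mt3 from -0.44 in 5M to -1.93 in 4F, and that of Slc30a1 from -1.18 in 3F to -2.83 in 5M. Culture 4F had the largest metallothionein deficit in EVs. The size depended on the processing: with every library thinned to the smallest total the log2 differences were -0.91, -0.86, -0.68 and -1.73, by library totals -2.15, -2.06, -1.78 and -2.82 (all genes then had a median of -0.88), and without the filter -1.99, -1.88, -1.61 and -2.65 (median 0.46).

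**Figure D5:**
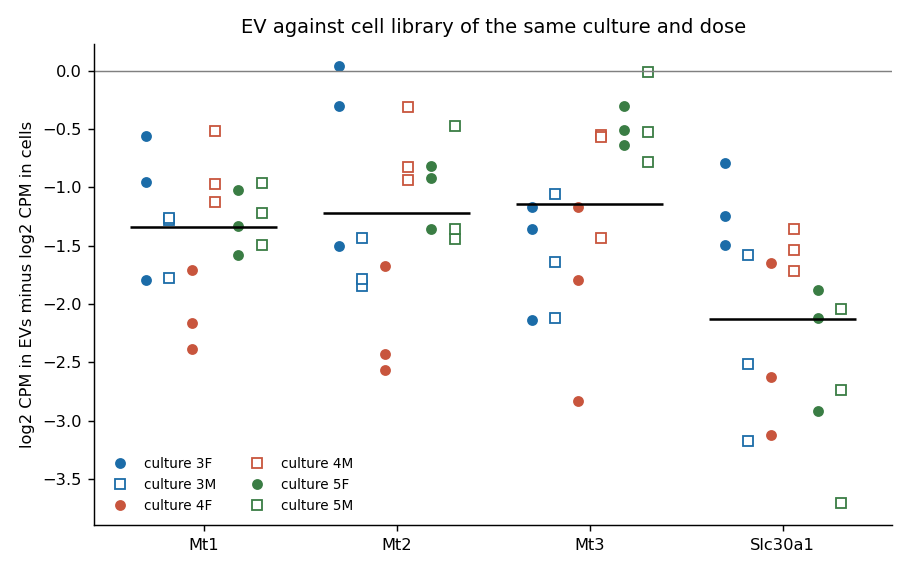
Log2 CPM in the EV library minus log2 CPM in the cell library of the same culture and dose (y axis) for each gene, with 3 points (doses) per culture and the mean of the 18 pairs as a black line. Slc30a1 lies lowest with a mean of -2.12, and 1 point of Mt2 (culture 3F at control) lies above 0.

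Other zinc genes were split between EVs and cells. The counts of lower and higher genes given here are of called genes. Over all 15281 genes tested, 80.5% were called and 42.2% were called lower in EVs. Mtf1 was higher in EVs by a log2 difference of 1.04 (SE 0.10), with a mean of 30.1 CPM in EVs against 14.4 in cells. Exons of Mtf1 overlap the protein-coding gene 1110065P20Rik of the opposite strand over 761 bases. If the counting did not use strand, this overlap may have altered the Mtf1 value, and in which direction was not tested. Of 6 tested exporters 4 were called lower in EVs, Slc30a6 (-2.30), Slc30a5 (-1.44), Slc30a4 (-1.31) and Slc30a9 (-0.96), and none was called higher. Of 11 tested importers 5 were lower and 3 higher. Slc39a6 (-2.57), Slc39a10 (-1.87) and Slc39a7 (-1.62) were lower and Slc39a8 (2.66), Slc39a5 (2.50) and Slc39a3 (0.95) higher, all past the test by edgeR. Slc30a6, Slc39a8 and Slc39a5 had at most 9, 15 and 14 counts in any EV library. Of 10 tested copper and other metal handling genes 8 were lower and 1 higher in EVs, and of 8 oxidative stress genes 6 were lower and 0 higher, with Hmox1 lowest at -2.81.

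Ethanol did not shift the EV-to-cell ratio of any member past the test. At heavy ethanol the change of the log2 ratio was -0.32 for Mt1 (SE 0.22), -0.34 for Mt2 (SE 0.25), -0.10 for Mt3 (SE 0.26) and -0.25 for Slc30a1 (SE 0.30), with adjusted p between 0.959 and 1.00 by edgeR over 18728 genes, of which 0% were called. At moderate ethanol it was -0.23, -0.30, 0.06 and -0.39, with 0.0107% of genes called and none of the 4. An interval such as that of Mt2 at heavy ethanol, -0.85 to 0.17 on the log2 scale, left room for a shift in either direction.

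Mt3 was the member that differed by sex. In cells, Mt3 was at 26.5 ± 7.17 CPM in the 9 libraries of female cultures and at 14.9 ± 2.99 CPM in the 9 of male cultures, a 1.71-fold difference (log2 0.77, SE 0.17, adjusted p = 0.0121 by edgeR), where 5.83% of 17052 genes were called and 3.20% were higher in females. Culture means were 23.5, 31.3 and 24.7 CPM in 3F, 4F and 5F and 16.3, 15.1 and 13.4 CPM in 3M, 4M and 5M, so the female and male cultures did not overlap. The fit treats the 3 dose libraries of 1 culture as if they were separate samples. When the counts of a culture were added up, which leaves 3 female against 3 male cultures, the log2 difference was 0.69 (SE 0.22) with adjusted p = 0.660 by edgeR, and an exact permutation test of the culture means gave p = 0.10, the smallest that 3 against 3 allows. The fit on summed counts called 7 of 20972 genes. Within doses, the sexes overlapped at control, where 3F had 13.7 CPM and 3M 21.8 CPM, and were apart at moderate and heavy ethanol.

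Astrocyte markers were lower in the same female cells. All 6 tested astrocyte markers were below 0 in the female against male comparison, 2 of them past the test, with a median log2 difference of -0.78, and Aqp4, the remaining marker of the list, was listed at 0 throughout. That fit counts the 3 dose libraries of a culture as separate samples and called 5.83% of 17052 genes. No values on summed counts are given for these markers. The summed level of the list was 152.6 to 507.0 CPM in the 9 female and 420.5 to 893.2 CPM in the 9 male cell libraries, from 3 cultures per sex, and these ranges overlapped. The median difference of short genes was 0.10, and the part of either in the Mt3 difference was not tested. In EVs Mt3 differed by 0.67 (SE 0.26, adjusted p = 0.0928 by edgeR) in the same direction, with 11.1% of 11037 genes called. With pregnancy as a term the EV value was 0.68 with adjusted p = 0.0256 by edgeR, again with the dose libraries as separate samples. That fit called 2993 of 11037 genes. With counts summed over the doses the EV value was 0.64 with adjusted p = 0.343 by edgeR, where 0 of 14847 genes were called. Over culture means it was 0.44 with exact permutation p = 0.60. The EV culture means were 8.77, 8.59 and 17.7 CPM in 3F, 4F and 5F and 5.43, 8.47 and 9.91 CPM in 3M, 4M and 5M, so that the sexes overlapped and only 5F stood above all male cultures. Without pregnancy 5 the EV difference was 0.44 (adjusted p = 0.465 by edgeR). Whether the sex difference itself differed between cells and EVs was not tested. Mt1, Mt2 and Slc30a1 differed by 0.00, 0.20 and -0.18 between female and male cells and by -0.15, 0.28 and -0.03 between female and male EVs, none past the test.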

How the data were processed

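RNA from 18 cell and 18 EV preparations was extracted, depleted of ribosomal RNA and sequenced with a stranded total RNA kit. After trimming and removal of duplicate reads, the authors mapped to mm39 with STAR and counted genes with HTSeq, and the deposited values are whole counts per gene without normalization. The annotation release and the strand setting of the counting are not given in the sources used here. The tests used edgeR 4.0.16 under R 4.3.3 (filterByExpr with minimum count 10 and minimum total 15, TMM, quasi-likelihood tests, Benjamini-Hochberg adjusted p under 0.05). Ethanol comparisons had the culture as a block. The model for EVs against cells held sex and dose, the EV-to-cell ratio was tested with a pair block and location by culture terms, and the model for sex held dose. CPM values were scaled by TMM over all 36 libraries and log2 CPM used a prior count of 1. DESeq2 1.42.0 and the other settings in the closing section were alternatives, and leaving out single cultures, the sex by dose test, the Mt1 to Mt2 ratio, the short-gene medians, within-culture differences by library totals and correlations without culture 3F were added after seeing the data. Lengths are unions of GENCODE exons on GRCm39.

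The 4 genes and the lists were chosen with earlier results of these data known. Genes were named by rule: the 4 members, in each list up to 3 called genes of the largest change, and the 3 genes most like each member. Slc30a10, Hmox1, Slc30a9 and Mt4 were named after their values were seen.

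Within a location the dose libraries of a culture paired up. Deviations from the condition mean correlated at a median of 0.702 and 0.690 in cells and 0.174 and 0.319 in EVs between control and moderate or heavy ethanol, with all 6 pairs over 0.1 in cells and 5 of 6 in EVs. The pairing comes from the culture itself, since each culture was divided over the 3 doses. EV and cell libraries of the same culture and dose, the pair block of the EV-to-cell ratio fit, hardly paired. Their median correlation was 0.0664, with 5 of 18 pairs over 0.1. Tested on simulated counts with 200 genes changed 2-fold, the fit recovered 76.0% of them for heavy ethanol against control in cells (17792 genes), 60.0% in EVs (11880 genes), 80.5% for EVs against cells (15281 genes) and 60.0% for females against males in cells (17052 genes). For the comparisons of EVs with cells and of the sexes, the simulated dose libraries of a culture shared no culture effect. Those values therefore do not show how these fits behave on libraries that share a culture. No libraries had identical counts. Intervals from counts cover counting error only.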

Additional observations from a re-analysis of the deposited data

Results flagged for a closer look

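The EV Mt3 level of culture 5F at moderate ethanol, 20.2 CPM from 65 counts, lay far from the other 5 cultures of that group, of which the next highest had 9.55 CPM. The gap to it was 0.632 of the range of the group, above the 95% critical value of Dixon's test for 6 samples. Culture 5F also had the highest EV Mt3 level at control and at heavy ethanol, 16.4 and 16.5 CPM. About 1 in 20 groups would be singled out this way by chance, and this was 1 of 24 groups examined.

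Slc30a1 in cells went down from control to moderate ethanol in 3 of 3 female cultures, by a mean of -0.11 on the log2 scale (SD 0.10), and up in 3 of 3 male cultures, by 0.14 (SD 0.06). The test of the difference between the sexes gave -0.29 (SE 0.15, unadjusted p = 0.0806, adjusted p = 0.574 by edgeR), which did not pass.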

How the results depend on the processing

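No alternative brought a member past the threshold in any ethanol or EV-to-cell ratio comparison, and in the comparison of EVs with cells all 4 genes stayed lower in EVs and past it in all 10 alternatives. Over the 16 alternatives for heavy ethanol in cells, the log2 difference ranged from 0.23 to 0.63 for Mt1 and from 0.33 to 0.93 for Mt2, with adjusted p of at least 0.220 and 0.233. The block by culture changed no call: with no replicate block, as with the replicate block by pregnancy, 0 of 4 genes passed in each ethanol comparison. For females against males in cells, 1 gene, Mt3, passed in the main fit, 0 with counts summed over the doses, and 0 or 1 without a pregnancy or a culture (0 without pregnancy 4 or 5 and without culture 4F or 5M), with adjusted p of Mt3 from 0.000954 to 0.660 over 14 alternatives. In EVs, 1 gene (Mt3) passed with the replicate block by pregnancy and 0 otherwise. The number called over all genes by sex moved as well. In cells it was 994 in the main fit, 7 with summed counts and 198 to 4302 without a pregnancy or culture. In EVs it was 1224 in the main fit, 2993 with the block by pregnancy and 0 with summed counts. Over all genes, heavy ethanol called 7 in cells and 10 in EVs with edgeR, and 94 and 267 with DESeq2, which called 0 of the 4.

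Values whose sign turned were all short of the threshold, and the cause was not tested. With library totals these were -0.023 (Mt3) and -0.057 (Slc30a1) for moderate ethanol in cells, -0.169 (Mt3) for moderate and -0.033 (Mt1) and -0.138 (Mt3) for heavy ethanol in EVs, -0.109 for the Mt3 ratio at moderate ethanol, and -0.147 for Mt1 by sex in cells. Without the filter, moderate ethanol in cells gave -0.005 (Mt3) and -0.014 (Slc30a1). With no replicate block, Mt3 was -0.005 for moderate ethanol in cells and -0.049 for heavy against moderate ethanol in EVs, and Slc30a1 0.090 for heavy ethanol in EVs. With the replicate block by pregnancy, Mt3 was -0.008 for moderate ethanol in cells, and Slc30a1 0.003 for heavy ethanol in EVs and 0.061 by sex in EVs. Mt1 by sex in cells was -0.029 with DESeq2 and -0.065 with summed counts.

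Leaving out pregnancies or cultures gave ranges that crossed 0: for moderate ethanol in cells -0.048 to 0.078 (Mt3) and -0.026 to 0.031 (Slc30a1); for heavy ethanol in cells -0.016 to 0.414 (Mt3, lowest without culture 3F); for moderate ethanol in EVs -0.133 to 0.077 (Mt1), -0.123 to 0.072 (Mt2), -0.069 to 0.222 (Mt3) and -0.482 to 0.042 (Slc30a1). For heavy ethanol in EVs they were -0.157 to 0.397 (Mt3) and -0.435 to 0.276 (Slc30a1), and for heavy against moderate -0.238 to 0.175 (Mt3). The Mt3 ratio ranged from -0.061 to 0.243 at moderate and -0.379 to 0.355 at heavy ethanol. By sex, Mt1 ranged from -0.249 to 0.249, Mt2 from -0.204 to 0.661 and Slc30a1 from -0.557 to 0.108 in cells, and Slc30a1 from -0.290 to 0.357 in EVs. EV depth, with as few as 2 counts for Mt3 and Slc30a1, adds counting error to EV comparisons of these genes.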
